A study of Mus musculus with 8 samples.

Results

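The cytosolic ribosomal proteins were described in RNA from Gr-1+ cells, which are myeloid cells carrying the surface antigens Ly6G or Ly6C. They were chosen by name: an assembled locus belonged to them where one of its gene symbols was Rpl, Rps or Rplp followed by a number, with an optional suffix for a paralog and no pseudogene or S6 kinase. Levels are in FPKM, fragments per kilobase of transcript, scaled to the fragments mapped in a library. Each symbol was represented by its locus of at least 200 bp with the highest mean FPKM and an accepted estimate in every library. This gave 63 of the 14958 gene symbols with a usable locus, 38 of the large and 25 of the small subunit. A further 3 symbols, Rpl32, Rps16 and Rps23, had only loci of 99, 119 and 133 bp and were left out. The annotation (GENCODE M1, NCBIM37, the same assembly as mm9) holds 82 coding symbols that fit the name rule, and those without a member are not analysed here.

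The mice were C57BL/6, 8 to 16 weeks old and of both sexes, and all carried 2 excisional back wounds of 8 mm. Nondiabetic mice were heterozygous (Lepr +/-) and diabetic mice homozygous (Lepr -/-) for a disrupted leptin receptor gene, so the controls carry 1 disrupted copy too; the labels do not name the allele. On day 3 Gr-1+ cells were taken with magnetic beads from bone marrow and from enzymatically digested wounds with a 2 mm border of skin. Each of the 4 groups has 2 libraries, each from a pool of 5 mice, so every p-value measures spread between pools and not between mice.

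The cytosolic ribosome joins a small subunit, which reads the mRNA, to a large subunit, which forms the peptide bond. Its proteins are needed in matched amounts, and their mRNAs commonly begin with a run of pyrimidines through which mTOR signalling and LARP1 control translation. Neutrophil precursors in the marrow make ribosomes while they divide, and mature neutrophils make few.

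Lepr stood at 0.477 and 0.689 FPKM in marrow and 4.95 and 4.66 in wound of nondiabetic mice, against 0.039 and 0.186 in marrow and 1.37 and 1.22 in wound of diabetic mice. It was lower in both diabetic groups. With FPKM alone deposited, read depth is unknown. FPKM over all loci summed to between 2173328 and 2788448 in marrow libraries and between 1544804 and 1780531 in wound libraries. The summed FPKM of 8 neutrophil genes was 22053 and 23025 in marrow and 572 and 657 in wound of nondiabetic mice, and 17690 and 17372 in marrow and 442 and 433 in wound of diabetic mice. The neutrophil granule gene Ngp was at 0 in 3 of the wound libraries. Wound libraries also carried keratinocyte genes (239 and 245 FPKM in nondiabetic, 611 and 592 in diabetic wound, 7.73 to 9.81 in marrow, where Krt1 was at 0) and fibroblast genes (257 to 384 FPKM in wound, 0.517 to 7.95 in marrow). Monocyte and macrophage genes summed to 68.7 to 95.3 FPKM in marrow and 259 to 318 in wound. Erythroid genes summed to 6221 and 6256 FPKM in nondiabetic marrow, 14013 and 15050 in diabetic marrow, and 25.9 to 50.1 in wound. B cell genes stood at 34.7 and 34.9 FPKM in nondiabetic marrow, 60.3 and 61.0 in diabetic marrow, and 2.56 to 4.11 in wound. Endothelial genes summed to 9.54 to 12.6 FPKM in marrow and 27.5 to 44.6 in wound, and T and NK cell genes to 22.2 to 35.4 in marrow and 6.61 to 22.8 in wound. The part of these cell mixtures in the results below was not tested, and in such bulk samples fewer cells of a type and less RNA per cell cannot be told apart.

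The assembled loci did not all contain the coding sequence of the gene they are named after. Coding bases were counted over all annotated transcripts of a gene together, 801 for Rps19 and 3629 for Rpl24 for example. A percentage of them need not be the share of any 1 transcript. Rpl24 enters the class of 25 members below on this count alone, and its locus lacks the start of the gene. A locus held at least 80% of the annotated coding bases, with at most 20% of its length outside the gene and a single gene name, for 25 members, 15 of the large and 10 of the small subunit. For 23 members it held part of the coding sequence, and for 11 it held no coding base. For the other 4, among them Rpl29, Rpl7a and Rps9, it held at least 80% of the coding bases but had more than 20% of its length outside the gene. Some loci with part of the coding sequence also ran beyond the gene, such as those of Rpl31 (98.5% outside) and Rps25 (87.5%). The loci were 219 to 108400 bp long with a median of 2022 bp. Of all members, 17 had a locus enclosing an annotated small RNA, and 10 had one overlapping another coding gene. The median of the members' mean FPKM was 79.8 for loci with the whole coding sequence and 48.9 for those with part of it. It was 2.55 for those with none and 40.7 for the other 4. Level and locus therefore went together, as the plot of level against coverage shows. Ribosomal proteins also have many near-identical pseudogene copies, so how reads were shared between copies is uncertain for every member.

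**Figure D1:**
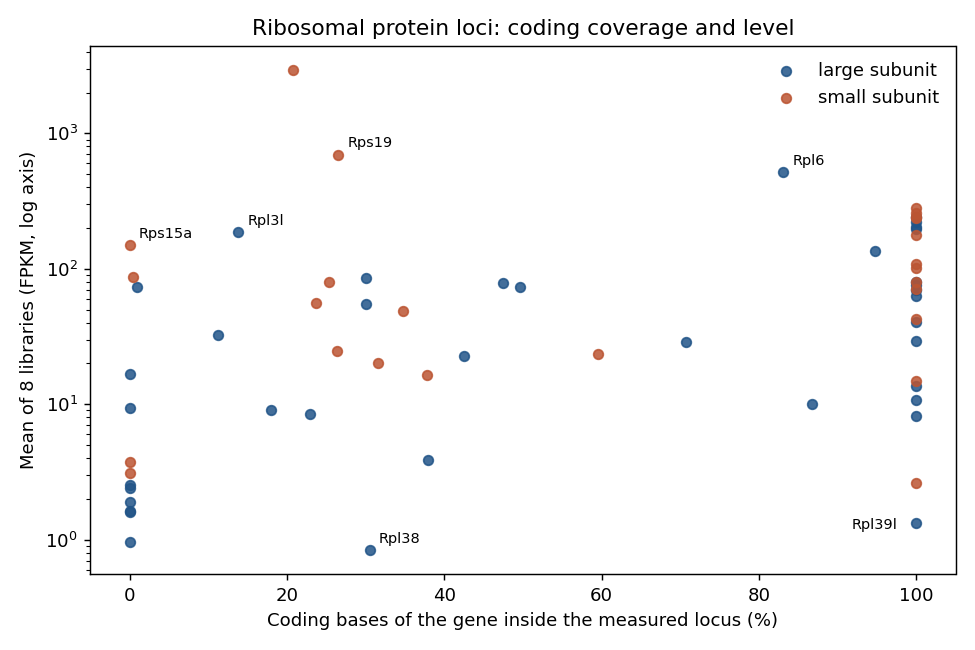
Mean FPKM over 8 libraries (log axis) against the percentage of annotated coding bases inside the measured locus, 1 point per member, large subunit in blue and small subunit in orange. Rpl6 is the highest of the members with the whole coding sequence, and most members near 1 to 4 FPKM have no coding base inside their locus.

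The 6 members with the highest mean FPKM included Rps19, Rpl6, Rps15, Rps26 and Rpl8. Rps19, of the small subunit, the gene most often mutated in human Diamond-Blackfan anaemia, was measured on 633 bp with 26.5% of the coding bases. Nondiabetic mice had 764 and 674 FPKM in marrow and 639 and 646 in wound, and diabetic mice 581 and 554 in marrow and 907 and 820 in wound. Diabetic wound was thus highest and the groups did not overlap within either tissue.

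Rpl6, a large subunit protein whose locus (mm9 chr5:121654570-121658618, plus strand) holds 83.1% of the coding bases, was the highest member among loci with the whole coding sequence. Nondiabetic libraries had 619 and 589 FPKM in marrow and 428 and 437 in wound, and diabetic libraries had 491 and 478 in marrow and 553 and 534 in wound. Diabetic libraries were below nondiabetic ones in marrow and above them in wound, without overlap. Rpl8, of the large subunit, had 281 and 262 against 210 and 231 FPKM in marrow and 203 and 217 against 270 and 263 in wound, and so showed the same order within each tissue.

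The 6 lowest members included Rpl5, Rpl19, Rpl39l, Rpl35 and Rpl38, with means of 1.89, 1.59, 1.32, 0.959 and 0.837 FPKM. Rpl5, Rpl19 and Rpl35 were measured on loci inside the gene that hold none of its coding bases, so these values do not give the level of the coding mRNA. Rpl38 was below the filter for testing (FPKM of at least 1 in at least 2 libraries), and the other 62 members passed it. Rpl39l, a paralog of Rpl39 known for its expression in testis, has its coding sequence whole within the locus.

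**Figure D2:**
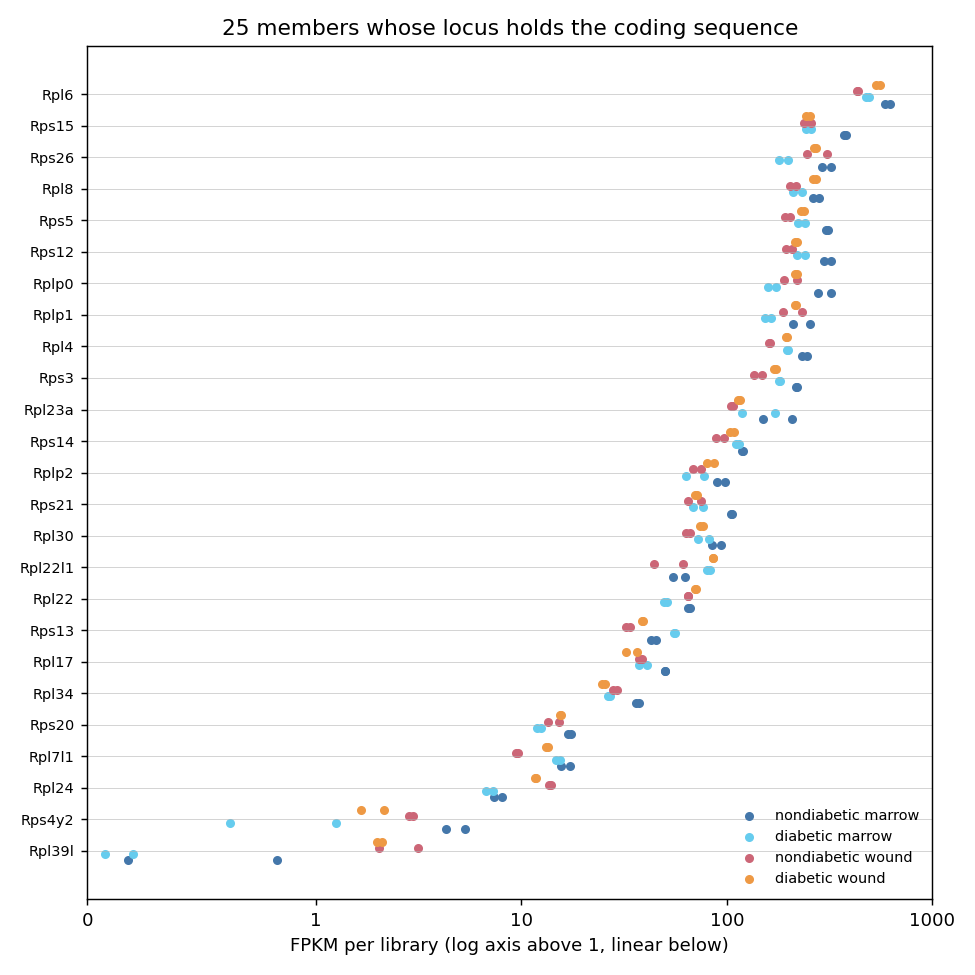
FPKM in each of the 8 libraries (axis logarithmic above 1 and linear below) for the 25 members whose locus holds at least 80% of the coding bases, ordered by mean level and coloured by group. For Rpl6, Rpl4 and Rps3 the nondiabetic marrow libraries are highest and the nondiabetic wound libraries lowest.

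The sum over all members was 0.341% to 0.392% of all FPKM in the marrow libraries and 0.426% to 0.575% in the wound libraries. Members with the whole coding sequence made up 0.139% to 0.165% in marrow and 0.172% to 0.21% in wound. The ranges of the tissues did not overlap. These shares divide by the sum over all loci, which was lower in every wound library than in every marrow library, as given above.

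Start sites were looked up in the RefSeq promoter table (GRCm38.p6, 250 bases before to 50 after each start), which matched 46 members. A run that begins with C at the first transcribed base and continues as C or T for at least 5 bases, read on the gene strand, was found in 11 of them (23.9%), against 813 of all 27025 genes in the table (3.01%). The windows below run from 30 bases before to 20 bases from the start, for the 5 members with such a run whose locus holds coding bases. The capitals mark the pyrimidine run that starts at the first transcribed base.
Rpl14, chr9:120571487-120571536, plus strand: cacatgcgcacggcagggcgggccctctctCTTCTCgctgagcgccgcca
Rpl38, chr11:114668550-114668599, plus strand: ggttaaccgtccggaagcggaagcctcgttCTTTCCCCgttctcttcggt
Rplp2, chr7:141447621-141447670, plus strand: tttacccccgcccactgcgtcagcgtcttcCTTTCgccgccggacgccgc
Rps10, chr17:27635225-27635274, minus strand: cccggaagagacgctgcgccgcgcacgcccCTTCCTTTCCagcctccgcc
Rps21, chr2:180257349-180257398, plus strand: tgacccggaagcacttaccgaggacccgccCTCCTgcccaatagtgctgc

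Among these 5 windows the run was longest in Rps10, at 10 bases, and shortest in Rplp2 and Rps21, at 5. CCGGAAG, the letters that ETS factors such as GABPA bind, was present on either strand in 20 of the 46 promoters (43.5%) and in 9.93% of all. The motif of YY1, searched as AAGATGGC on either strand, was present in 5 (10.9%) and in 3.19% of all. Both motifs were searched from 250 bases before to 50 after each start, not within the printed windows alone. These matches describe letters within those stretches only.

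The first comparison asked how Gr-1+ cells in the wound differ from those in the marrow of the same genotype. In nondiabetic mice 8 of the 62 members tested were higher in wound and 37 lower, where 32.8% of all 12826 loci tested were higher and 54.1% lower. The median difference of the members was -0.39 on the log2(FPKM + 1) scale and that of all genes -0.38. The medians were thus close, while a smaller share of the members than of all loci was higher. In the large subunit 7 of 37 rose and 19 fell, and in the small subunit 1 of 25 rose and 18 fell. Of the 25 members with the whole coding sequence 2 rose and 19 fell, with a median of -0.40.

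Rplp0, the central protein of the ribosomal stalk, fell from 320 and 277 FPKM in nondiabetic marrow to 189 and 220 in nondiabetic wound (-0.54, SE 0.101, adjusted p = 0.0023 by limma). The groups did not overlap, but the difference was -0.16 with quantile and 0.024 with median-ratio scaling, and passed with neither. Rps15 of the small subunit fell from 373 and 382 to 238 and 257 FPKM (-0.61, SE 0.057, adjusted p = 7.94e-05), and stood at -0.04 with median-ratio scaling. Rpl23a of the large subunit, from 207 and 151 to 105 and 107 FPKM, fell by 0.73 (SE 0.206, adjusted p = 0.0149), with its marrow libraries far apart. It lost its call with both other scalings (-0.28 and -0.16) and without nondiabetic marrow pool 1 or either nondiabetic wound pool (-0.50 to -0.74). Rpl5, from 2.93 and 2.77 to 0.774 and 1.46 FPKM on a locus with no coding base, fell by 0.88 (SE 0.237, adjusted p = 0.0123), and did not pass with median-ratio scaling or without pool 1 of either nondiabetic tissue (-0.52 to -0.85).

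Other members with a large fall share their locus with a neighbouring gene. Rpl3l, the muscle paralog of Rpl3, fell from 309 and 314 to 78.2 and 83.4 FPKM (-1.94, SE 0.040, adjusted p = 7.51e-08). Its locus is 271 bp long, is named jointly with Sepx1 and holds 13.8% of the Rpl3l coding bases. Rpl31 fell from 6.08 and 6.10 to 1.49 and 1.64 FPKM (-1.47, SE 0.050), on a locus of 108400 bp of which 98.5% lies outside the gene and which holds Tbc1d8. Rps9 fell from 103 and 101.5 to 49.1 and 56.1 FPKM (-0.95, SE 0.065), on a locus that also overlaps Lilrb3, a leukocyte receptor gene. The neighbours' part in these 3 falls was not tested. With Rpl31 read from its highest locus of any length the difference was 1.75, and with its loci summed it was 0.21, neither of which passed.

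The 5 members that rose most in nondiabetic wound included Rpl39l, Rpl36a, Rpl24 and Rpl19. Rpl39l went from 0.180 and 0.831 FPKM to 3.15 and 2.04 (1.27, SE 0.235, adjusted p = 0.00224). At its highest locus of any length the difference was exactly 0.0, and whether that locus had any signal in these libraries was not tested. Rpl39 stood at 56.5 and 61.6 FPKM in marrow and 52.7 and 56.0 in wound of these mice (-0.12, adjusted p = 0.0811). Rpl36a went from 54.0 and 57.0 to 95.5 and 104 FPKM (0.84, SE 0.054), but its locus of 222 bp is named jointly with Gla and Hnrnph2 and holds 0.9% of its coding bases. The locus named Rpl24, which also contains Pcnp, rose from 7.34 and 8.09 to 13.7 and 13.99 FPKM (0.77, SE 0.056). It holds 3150 of the 3629 bases counted as coding for Rpl24. On the plus strand it starts at 55973041, after the gene start at 55966388. Whether it holds the coding sequence of the ribosomal protein itself was not tested. Rpl19 (0.61, SE 0.192) rose on a locus with no coding base, and did not pass with quantile scaling (0.42), without nondiabetic marrow pool 1 (0.47) or without nondiabetic wound pool 2 (0.52). Rpl3, the general counterpart of Rpl3l, rose from 26.6 and 28.3 to 39.9 and 40.3 FPKM on a locus with 11.2% of its coding bases (0.53, SE 0.043, adjusted p = 3.46e-05).

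In diabetic mice 23 members were higher in wound and 9 lower, where 37.9% of all loci were higher and 47.8% lower. The median difference was 0.04 for the members and -0.18 for all genes. In the large subunit 16 rose and 5 fell, and in the small subunit 7 rose and 4 fell. Of the members with the whole coding sequence 10 rose and 3 fell, with a median of 0.02. The largest rises were those of Rpl39l (1.42, SE 0.235), Rpl23 (1.25, SE 0.063), Rpl7a (1.07, SE 0.204), Rps27l (1.03, SE 0.057) and Rpl3 (0.81, SE 0.043). For Rpl39l the size of the rise depended on the processing, from 0.46 to 9.45 over the alternatives.

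Rpl23, a large subunit protein that binds Mdm2, rose from 15.5 and 14.8 FPKM in diabetic marrow to 36.9 and 37.7 in diabetic wound, on a locus with 42.5% of its coding bases. Rps27l, a paralog of Rps27 induced by p53, rose from 31.2 and 30.2 to 65.9 and 61.6 FPKM with 34.7% of its coding bases covered. Both pairs of groups were far apart. Rpl7a rose from 4.24 and 6.55 to 12.6 and 11.9 FPKM on a locus of 28177 bp that lies 90.9% outside the gene and overlaps 4 others, Med22, Surf1, Surf2 and Surf4. The largest falls were again in Rpl3l (-2.03, SE 0.040), Rpl31 (-1.94, SE 0.050) and Rps9 (-0.82, SE 0.065), followed by Rps6 (-0.68, SE 0.177, no coding base in the locus). Rps6 did not pass with median-ratio scaling (-0.42), without diabetic marrow pool 2 (-0.48) or without diabetic wound pool 1 (-0.51). Rps13 of the small subunit, measured over its whole coding sequence, fell from 55.8 and 55.2 to 39.2 and 38.5 FPKM (-0.50, SE 0.039, adjusted p = 3.01e-05), and stood at -0.080 with quantile scaling. Read from other loci, Rpl31 rose instead, by 5.25 from its highest locus and by 2.34 with all loci summed.

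The direction of the tissue comparison depended on how libraries were scaled. With quantile scaling, which gives all libraries the same distribution, 20 members rose and 12 fell in nondiabetic mice (38.1% and 46.0% of all loci) and 44 rose and 4 fell in diabetic mice (40.6% and 44.4%). With median-ratio scaling, which sets the typical gene of each library equal, 28 rose and 4 fell in nondiabetic (44.3% and 40.2%) and 43 rose and 4 fell in diabetic mice (44.8% and 40.4%). The members' median in nondiabetic mice was 0.06 with quantile and 0.16 with median-ratio scaling, so that its sign turned. Relative to the median of all genes it was -0.01 as deposited, 0.18 with quantile and 0.09 with median-ratio scaling. In diabetic mice the members' median lay above that of all genes under each, by 0.22, 0.37 and 0.27.

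**Figure D3:**
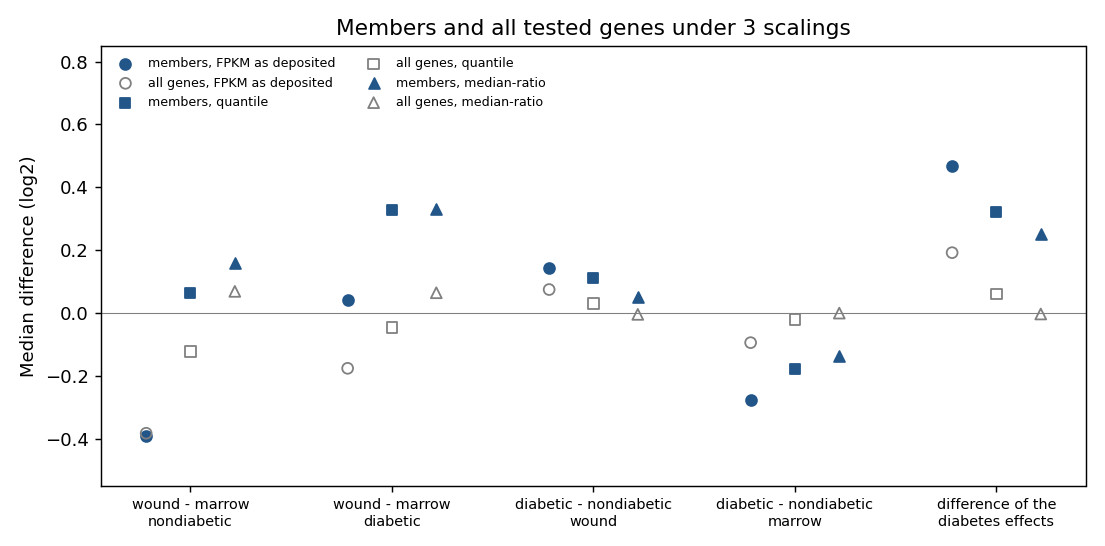
Median log2 difference of the 62 members tested (filled) and of all 12826 loci tested (open) in the 5 comparisons, with FPKM as deposited (circles), quantile scaling (squares) and median-ratio scaling (triangles). In wound minus marrow of nondiabetic mice the members' median is -0.39 as deposited and 0.16 with median-ratio scaling, whereas in the last comparison it lies above that of all genes under each scaling.

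The second comparison asked what the diabetic genotype changes in the cells of each tissue. In marrow 5 members were higher and 33 lower in diabetic mice, where 13.5% of all loci were higher and 33.3% lower. The median difference was -0.28 for the members and -0.09 for all genes. In the large subunit 2 rose and 18 fell, and in the small subunit 3 rose and 15 fell. Of the 25 members with the whole coding sequence 2 rose and 17 fell, with a median of -0.37. Relative to all genes the members' median was -0.18 as deposited, -0.16 with quantile and -0.14 with median-ratio scaling. Counts were 7 higher and 29 lower with quantile scaling (18.0% and 20.4% of all loci) and 7 and 24 with median-ratio scaling (21.6% and 19.8%). Erythroid genes, given above, were higher and neutrophil genes lower in the same diabetic libraries.

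All 3 stalk proteins fell in diabetic marrow. Rplp0 went from 320 and 277 FPKM to 158 and 173 (-0.85, SE 0.101, adjusted p = 0.00129). Rplp1, an acidic stalk protein that recruits translation factors, went from 253 and 209 to 153 and 164 FPKM (-0.53, SE 0.126, adjusted p = 0.016). Rplp2, its partner, whose start window is printed above, went from 97.9 and 89.7 to 63.4 and 77.4 FPKM (-0.42, SE 0.106, adjusted p = 0.0214). None of these groups overlapped, and each locus holds the whole coding sequence. Rplp1 and Rplp2 lost their calls with median-ratio scaling (-0.38 and -0.26), without nondiabetic marrow pool 1 (-0.40 and -0.35) and without diabetic marrow pool 1 (-0.49 and -0.27).

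Among small subunit proteins with the whole coding sequence, Rps26 went from 323 and 289 FPKM in nondiabetic to 179 and 199 in diabetic marrow (-0.70, SE 0.118, adjusted p = 0.0048). Rps15 went from 373 and 382 to 244 and 258 FPKM (-0.59, SE 0.057, adjusted p = 6.07e-04). Rps4y2, in mouse an autosomal relative of Rps4x on chromosome 6, went from 5.31 and 4.33 to 0.624 and 1.26 FPKM (-1.60, SE 0.177, adjusted p = 9.88e-04), and its locus overlaps the gene Tmtc1. The largest fall was that of Rpl21, from 16.2 and 16.0 to 1.75 and 3.26 FPKM (-2.32, SE 0.221, adjusted p = 5.57e-04), on 321 bp that hold 22.9% of the coding bases.

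The 5 members that rose in diabetic marrow included Rps6, Rps18, Rpl22l1 and Rps13. Rps6, the substrate of S6 kinases, went from 1.89 and 2.36 to 5.41 and 7.44 FPKM (1.24, SE 0.177), and Rps18 from 1.97 and 1.93 to 3.66 and 4.10 (0.72, SE 0.135). Both loci hold no coding base. Rps13, with its whole coding sequence, rose from 45.1 and 43.0 to 55.8 and 55.2 FPKM (0.33, SE 0.039, adjusted p = 0.00128).

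In wound 21 members were higher and 7 lower in diabetic mice, where 32.6% of all loci were higher and 21.6% lower. The share of members higher was close to the background. In the large subunit 11 of 37 were higher and 6 lower, and in the small subunit 10 of 25 were higher and 1 lower. The median difference was 0.14 for the members and 0.07 for all genes, and the members with the whole coding sequence had 10 higher, 2 lower and a median of 0.11. These counts rested on few libraries: 12 were higher without nondiabetic wound pool 1, 13 without diabetic wound pool 1 and 15 without diabetic wound pool 2. Those lower numbered 3 without nondiabetic wound pool 2 and 4 without either diabetic wound pool. With quantile scaling 20 were higher and 8 lower (29.7% and 26.7% of all loci), and with median-ratio scaling 14 and 11 (25.1% and 28.9%). Keratinocyte genes were higher in the diabetic wound libraries, at all 6 of 6 loci tested, and all 7 neutrophil genes tested had lower means there, 5 of them past the threshold.

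The largest rises in diabetic wound were those of Rpl22l1, described with its paralog below, Rpl35a, Rpl23, Rps25 and Rps18. Rpl23 went from 22.8 and 24.3 to 36.9 and 37.7 FPKM (0.64, SE 0.063, adjusted p = 4.62e-04). Rpl35a went from 6.52 and 6.01 to 10.5 and 10.8 FPKM on a locus with no coding base (0.69, SE 0.121). Rps25, needed for translation from some viral internal entry sites, went from 18.3 and 16.7 to 26.4 and 24.1 FPKM on a locus that is 87.5% outside the gene and overlaps Trappc4 (0.51, SE 0.098). Rps18 (0.45, SE 0.135, adjusted p = 0.031) lost its call with median-ratio scaling (0.38), without nondiabetic wound pool 1 (0.24) and without either diabetic wound or nondiabetic marrow pool (0.44 to 0.47).

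Rpl21 fell in diabetic wound as in diabetic marrow, from 13.8 and 10.4 to 3.28 and 2.84 FPKM (-1.68, SE 0.221, adjusted p = 0.00142). All 4 diabetic libraries were thus below all 4 nondiabetic ones for this locus. The next 4 falls without overlap of the libraries were smaller, at -0.35 for Rpl31, -0.23 for Rpl3l, -0.22 for Rpl24 and -0.19 for Rps9. Each of these 4 is on a locus shared with another gene. The remaining members called lower are not described here, and this sharing is not stated for them. Rpl31 stood at 1.79 from its highest locus and 1.63 with loci summed, neither of which passed, and Rpl24 stood at 0.057 with loci summed. Rpl24 lost its call without any 1 of the 4 wound libraries (-0.21 to -0.24), and Rps9 without any 1 library but nondiabetic wound pool 1 (-0.10 to -0.21). Rpl11, which like Rpl5 binds Mdm2 when it is not in a ribosome, had the highest difference in wound (1.08, SE 0.413) but did not pass (adjusted p = 0.0702), with 1.37 and 1.04 FPKM in the nondiabetic libraries, and 1.90 and 6.41 in the diabetic ones, on a locus without coding bases.

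**Figure D4:**
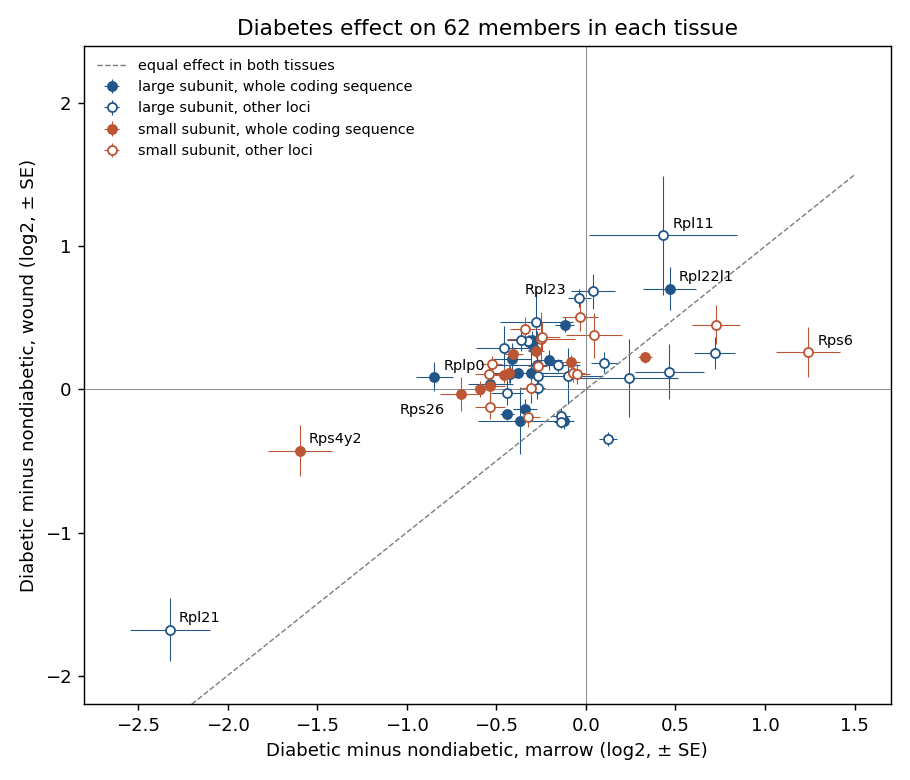
Diabetic minus nondiabetic difference on the log2(FPKM + 1) scale in wound (vertical) against marrow (horizontal) for 62 members, with standard errors of the fit as bars, blue for the large and orange for the small subunit, and filled where the locus holds the whole coding sequence. Most members lie above the dashed line of equal effect, and Rpl21 is far below 0 in both tissues.

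The third comparison asked whether the diabetes effect differed between the tissues. The difference of the effects, wound minus marrow, was higher in 37 members and lower in 3, where 39.7% of all loci were higher and 19.2% lower. Its median was 0.47 for the members and 0.19 for all genes. In the large subunit 20 of 37 were higher and 2 lower, with a median of 0.42, and in the small subunit 17 of 25 were higher and 1 lower, with a median of 0.54. Of the 25 members with the whole coding sequence 19 were higher and none lower, with a median of 0.56, and the remaining 6 did not pass. Of these 25, 16 were higher and 2 lower with quantile scaling, and 12 and 2 with median-ratio scaling. Over all members tested, 27 were higher and 5 lower with quantile scaling (29.8% and 26.0% of all loci), and with median-ratio scaling 19 and 7 (25.6% and 29.3%). Relative to all genes the members' median was 0.27 as deposited, 0.26 with quantile and 0.25 with median-ratio scaling. The count lower fell to 1 without diabetic wound pool 1. The 2 tissues share no library, but each effect enters this difference, so that it is not independent of the comparisons above.

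Rplp0 had a difference of effects of 0.93 (SE 0.143, adjusted p = 0.00242), from -0.85 in marrow to 0.09 in wound, where nondiabetic libraries had 189 and 220 FPKM and diabetic ones 216 and 218. Rplp2 had 0.63 (SE 0.150, adjusted p = 0.013) and Rplp1 0.57 (SE 0.178, adjusted p = 0.0335), and the stalk proteins so differed in 1 direction. With median-ratio scaling Rplp2 stood at 0.37 and did not pass. Rplp1 passed only narrowly and lost its call without any 1 of nondiabetic marrow pool 1, nondiabetic wound pool 1 and the 4 diabetic pools, with values of 0.42 to 0.62, and with both other scalings. Rps19 had 0.76 (SE 0.118, adjusted p = 0.0025), from a fall of 0.34 in marrow to a rise of 0.42 in wound, both past the threshold. Its fall in marrow lost the call with both other scalings (-0.24 and -0.19) and without nondiabetic marrow pool 1 or either diabetic marrow pool (-0.25 to -0.37). Rpl6 likewise had -0.32 in marrow and 0.33 in wound, both past the threshold, with a difference of 0.65 (SE 0.070, adjusted p = 6.83e-04).

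Rps4y2 (1.17, SE 0.251, adjusted p = 0.00886) had the highest difference, with 2.83 and 2.96 FPKM in the nondiabetic wound libraries, and 2.15 and 1.66 in the diabetic ones. Rpl29 (0.74, SE 0.221, adjusted p = 0.0294) and Rpl18 (0.70, SE 0.109, adjusted p = 0.00252) were also among the 5 with the largest differences, the first on a locus with 63.1% outside the gene and the second on 574 bp that lie wholly outside Rpl18 and overlap Dbp. The 3 members with a lower difference included Rps6 (-0.98, SE 0.251) and Rpl31 (-0.47, SE 0.070). Rpl29 did not pass with either other scaling (0.52 and 0.50) or without any 1 library but the diabetic marrow pools (0.71 to 0.77). Rps6 did not pass without pool 1 of nondiabetic marrow, nondiabetic wound or diabetic wound (-0.81 to -0.88). Neither Rps6 nor Rpl31 has its coding sequence whole in the locus, and Rpl31 stood at 3.51 from its highest locus and 2.13 with loci summed.

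**Figure D5:**
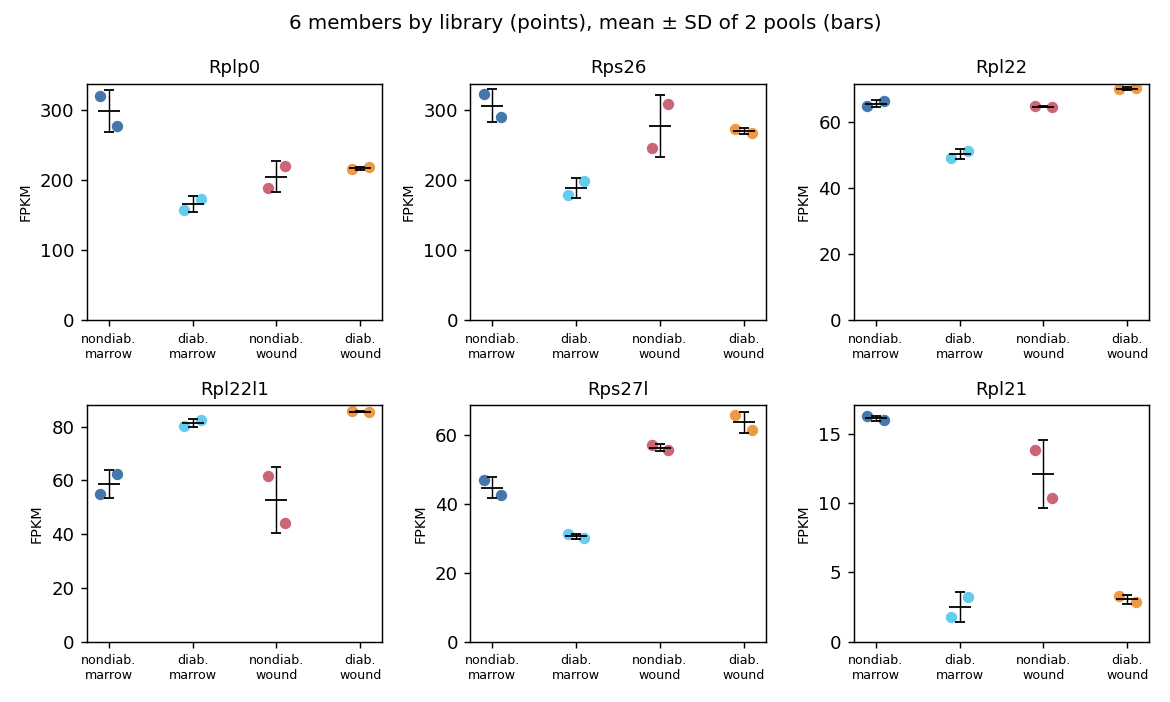
FPKM in each library (points) with the mean and SD of 2 pools (bars) for 6 members. Rplp0, Rps26, Rpl22 and Rps27l are lowest in diabetic marrow, Rpl22l1 is higher in both diabetic groups, and Rpl21 is lower in both.

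Paralogs did not all follow the protein they are named after. Rpl22, a large subunit protein that binds RNA and restrains its paralog in mouse, had 64.8 and 66.4 FPKM in marrow and 64.8 and 64.6 in wound of nondiabetic mice, and 49.2 and 51.3 in marrow and 69.9 and 70.4 in wound of diabetic mice. Rpl22l1, the paralog, had 54.9 and 62.3 in marrow and 61.5 and 44.2 in wound of nondiabetic mice, and 80.2 and 82.4 in marrow and 85.6 and 85.6 in wound of diabetic mice. Rpl22l1 was above its nondiabetic libraries in both diabetic groups, and Rpl22 was lowest in diabetic marrow. In marrow Rpl22 fell with diabetes by 0.38 (SE 0.033, adjusted p = 4.19e-04) while Rpl22l1 rose by 0.47 (SE 0.148, adjusted p = 0.043). That rise lost its call without any 1 of the 4 marrow or 2 diabetic wound libraries (0.38 to 0.56). In wound Rpl22l1 rose by 0.70 (SE 0.148, adjusted p = 0.00887), and Rpl22 by 0.11 (SE 0.033, adjusted p = 0.027), which did not pass with median-ratio scaling or without any 1 of the 4 wound libraries. The difference between the paralogs was not tested, and both loci hold the whole coding sequence.

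Rpl7l1, a paralog of Rpl7, rose with diabetes in wound from 9.41 and 9.64 to 13.3 and 13.5 FPKM (0.45, SE 0.053, adjusted p = 9e-04). Rpl7 went from 57.1 and 60.4 to 65.5 and 66.7 FPKM on a locus with 49.6% of its coding bases (0.17, SE 0.047, adjusted p = 0.0259), and did not pass with median-ratio scaling (0.057) or without nondiabetic wound pool 1 or either diabetic wound pool (0.13 to 0.18). Rpl39 fell with diabetes in marrow by 0.27 (SE 0.054, adjusted p = 0.00921), or by 0.23 and not past the threshold without diabetic marrow pool 1, where Rpl39l had -0.37 (adjusted p = 0.253). Rps27l fell in diabetic marrow from 46.9 and 42.6 to 31.2 and 30.2 FPKM (-0.53, SE 0.057) and had 0.17 in diabetic wound (SE 0.057, adjusted p = 0.0432), which passed with neither other scaling and not without any 1 library but the nondiabetic marrow pools (0.13 to 0.22). It had a difference of effects of 0.70 (SE 0.081, adjusted p = 8.64e-04).

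The subunits were compared within each library by the median log2(FPKM + 1) of large minus small subunit members, in which a common scaling factor nearly cancels. The marrow value was -1.71 ± 0.12 in nondiabetic and -1.63 ± 0.08 in diabetic mice, and the wound value -1.16 ± 0.02 and -1.01 ± 0.16 (mean ± SD, 2 pools each). The median of the large subunit members was thus below that of the small subunit members in each group, and the gap was smaller in wound. With the 25 whole coding sequences alone, a choice made after seeing the data, it was -0.88 ± 0.05, -0.88 ± 0.09, -0.80 ± 0.06 and -0.69 ± 0.03 in the same order, so that the gap was smaller in every group and differed less between the tissues. The medians of mean FPKM over all members were 29.0 for the large and 79.5 for the small subunit.

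Other ribosomal genes outside the name rule included Gnb2l1 and Fau. Gnb2l1, which encodes the small subunit protein Rack1, had 69.3 and 72.3 FPKM in marrow and 52.9 and 58.2 in wound of nondiabetic mice, and 54.6 and 57.8 in marrow and 64.6 and 62.7 in wound of diabetic mice. It was highest in nondiabetic marrow. Its difference of effects was 0.52 (SE 0.080, adjusted p = 0.00242). Fau, which makes a small subunit protein fused to a ubiquitin-like one, went the other way on 324 bp. It had 3.25 and 2.89 FPKM in marrow and 5.01 and 5.50 in wound of nondiabetic mice, and 10.99 and 12.1 in marrow and 5.94 and 4.73 in wound of diabetic mice. Its difference of effects was -1.61 (SE 0.152, adjusted p = 4.23e-04).

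Mitochondrial ribosomal proteins, which build the separate ribosome of that organelle, had a higher difference of effects in 56 of 69 tested and a lower one in 1, with a median of 0.65, where 39.7% of all loci were higher and 19.2% lower with a median of 0.19. In diabetic marrow 1 was higher and 46 lower (13.5% and 33.3% of all loci), and in diabetic wound 38 were higher and 3 lower (32.6% and 21.6%). Among those with the smallest p were Mrps14 (0.80, SE 0.062) and Mrpl36 (0.99, SE 0.081). In wound minus marrow 8 rose and 40 fell in nondiabetic mice (32.8% and 54.1% of all loci) and 34 rose and 19 fell in diabetic mice (37.9% and 47.8%). With FPKM as deposited the same shares over all loci apply to the 3 lists that follow. For the other scalings the shares given above with the members apply. With quantile and median-ratio scaling 24 and 27 rose and 30 and 26 fell in nondiabetic mice. Of all loci 38.1% and 44.3% were then higher and 46.0% and 40.2% lower. The tissue balance there thus depended on the scaling, for the list and for all loci. The difference of effects was then higher in 48 and 45 and lower in 2 and 4 (29.8% and 25.6% of all loci higher, 26.0% and 29.3% lower).

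Translation factors had a higher difference of effects in 29 of 38 and a lower one in 3, with a median of 0.48. Those with the smallest p included Eif3l (0.77, SE 0.048), Eif3g (0.65, SE 0.049) and Eif3e (0.72, SE 0.061), subunits of the initiation factor that binds the small subunit, and the elongation factor Eif5a (0.45, SE 0.042). In diabetic marrow 4 rose and 24 fell, and in diabetic wound 20 rose and 1 fell. The falls in marrow numbered 12 with quantile and 9 with median-ratio scaling, beside 6 rises with each. In wound minus marrow 10 rose and 18 fell in nondiabetic and 18 rose and 11 fell in diabetic mice. The nondiabetic balance turned with scaling, to 22 higher and 9 lower with both quantile and median-ratio scaling. Of all loci 38.1% and 44.3% were then higher and 46.0% and 40.2% lower. The difference of effects had 21 and 16 higher and 4 and 5 lower with quantile and median-ratio scaling. Eif4a1, the helicase of cap-dependent initiation, rose by 2.13 (SE 0.068) and 2.92 (SE 0.068), and Eif4e, the cap-binding protein, by 1.55 and 1.83 (SE 0.049 each).

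Genes of ribosome biogenesis, which make ribosomal RNA and assemble subunits, rose in wound: 27 of 40 were higher and 7 lower in nondiabetic and 33 higher and 4 lower in diabetic mice, with medians of 0.48 and 0.81. With quantile and median-ratio scaling 31 and 33 rose in nondiabetic mice (38.1% and 44.3% of all loci) and 32 and 33 in diabetic mice (40.6% and 44.8%). Ltv1, an assembly factor of the small subunit, rose by 1.71 and 1.67 (SE 0.034 each), and Ddx21, a nucleolar helicase, by 1.12 and 1.42 (SE 0.046 each). Polr1a, the largest subunit of RNA polymerase I, had -2.41 and -2.89 (SE 0.041 each), past the threshold in both. The difference of effects was higher in 28 and lower in 3, with a median of 0.45 (21 and 5 with quantile, 18 and 5 with median-ratio scaling), among them Pno1 (0.93, SE 0.069) and Nip7 (1.19, SE 0.118). In diabetic marrow 3 rose and 14 fell, with Npm1 at -0.47 (SE 0.041), and in diabetic wound 23 rose and 4 fell. With either other scaling 4 rose and 7 fell in marrow, and the median there went from -0.10 to -0.03 with quantile and 0.017 with median-ratio scaling.

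Regulators of ribosome production and of pyrimidine-run mRNAs had no such balance in the difference of effects, with 6 higher and 6 lower of 27 and a median of -0.04. With quantile and median-ratio scaling 4 and 3 were higher and 12 and 14 lower. Rheb, the activator of mTOR, had 0.89 (SE 0.069) and Rictor, of the second mTOR complex, -0.55 (SE 0.048). In diabetic wound 6 rose and 5 fell, and in diabetic marrow 7 rose and 7 fell, with 4 and 3 rises and 12 falls each in wound and 7 and 8 rises and 3 falls each in marrow with the other scalings. Among the rises in marrow was Ddit4, an inhibitor of mTOR signalling (0.92, SE 0.102). In wound minus marrow 9 rose and 15 fell in nondiabetic and 8 rose and 17 fell in diabetic mice. The nondiabetic balance turned with scaling, to 13 and 12 higher and 10 lower with quantile and median-ratio scaling. Of all loci 38.1% and 44.3% were then higher and 46.0% and 40.2% lower. In diabetic mice 11 and 9 were higher and 12 lower with each (40.6% and 44.8% of all loci higher, 44.4% and 40.4% lower). Max, the partner of Myc, had -2.70 and -2.74 (SE 0.036 each), and in diabetic mice Myc rose by 2.32 (SE 0.063).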

How the data were processed

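RNA of 8 libraries was sequenced on an Illumina HiSeq2000, 1 lane per sample per the labels. The authors deposited FPKM per assembled locus with an estimate status, made with TopHat and Cufflinks on mm9 per the submitters' processing notes; versions and settings are not given in the sources used here. Short loci and reads shared with pseudogenes can change such values.

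The members and lists were chosen with earlier results of these data known. Each symbol was read from its highest locus of at least 200 bp with status OK throughout. Loci that reached FPKM 1 in 2 or more libraries (12826) were tested as log2(FPKM + 1) in limma 3.58.1 under R 4.3.3, with 4 group means, trend = TRUE, 4 residual degrees of freedom and two-sided tests, adjusted by Benjamini-Hochberg (threshold 0.05). The fit was tested on simulated data. Alternatives were pseudocounts of 0.1 and 5, no filter or FPKM of at least 5 in 4 libraries, quantile, median-ratio and member-median scaling, no trend, the compared groups alone, other locus choices, pool blocks and each library left out.

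Coding coverage came from GENCODE M1. Named members were the 6 highest and lowest, the 5 largest calls each way per comparison whose libraries do not overlap (overlap allowed for the difference of effects), the 3 farthest from the members' median, stalk proteins and paralogs. In each other list, up to 4 genes with the smallest p could be named. Results for some of the genes these rules name are not reported here. Plots used matplotlib 3.10.9 (Python 3.11.15).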

Additional observations from a re-analysis of the deposited data

Results flagged for a closer look

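Of the 62 members tested, 37 were higher and 3 lower by limma's test of the difference of the diabetes effects (wound minus marrow). The differences given above for 11 of the members called with FPKM as deposited are repeated here. Among loci with the whole coding sequence they were those of Rps4y2 at 1.17, Rplp0 at 0.93, Rpl6 at 0.65, Rplp2 at 0.63 and Rplp1 at 0.57. Rps19 and Rps27l, with part of their coding sequence, had 0.76 and 0.70. Rpl29, on a locus that runs beyond the gene, had 0.74, and Rpl18, on one outside the gene, had 0.70. The differences were negative for Rps6 at -0.98 and Rpl31 at -0.47. Not all of these were stable: Rpl31 ran from -0.79 to 3.51 over the alternatives. As given above, Rplp1, Rplp2, Rpl29 and Rps6 lost their calls in some alternatives. Their differences ran from 0.31 to 0.73, 0.37 to 0.77, 0.48 to 1.00 and -1.21 to -0.54. Over the alternatives tried Rplp0 stayed between 0.67 and 1.04, Rps19 between 0.50 and 0.85, Rps4y2 between 0.53 and 1.71 and Rpl18 between 0.46 and 0.79, each with an adjusted p of at most 0.0154, 0.018, 0.0339 and 0.0142.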

How the results depend on the processing

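Of the counts and subunit gaps recomputed, 194 stayed within 1.5 times or 1 SD and 42 moved. For named members 1258 values kept direction and call, 134 lost the call and 10 reversed. The stricter filter left 52 members for testing and the highest locus of any length 65, against 62 in the main fit. Wound minus marrow in nondiabetic mice had 5 members higher with the stricter filter. It had 20 and 28 higher with quantile and median-ratio scaling, and 12 and 4 lower. In diabetic mice it had 44 and 43 higher, and 4 lower under both scalings. Diabetic marrow had 3 higher with the stricter filter. Diabetic wound had 11 lower with median-ratio scaling. For the difference of effects 19 were higher with median-ratio scaling, and those lower numbered 1 with the stricter filter or the highest locus, 5 and 7 with the scalings and 6 centred on the members' median. The reversed values were those of Rpl31 (highest locus and summed loci: 1.75 and 0.21, 5.25 and 2.34, 1.79 and 1.63, 3.51 and 2.13 in the order wound minus marrow nondiabetic, diabetic, diabetic wound, difference of effects) of Rpl24 in diabetic wound (0.057, summed loci), and of Rplp0 in wound minus marrow of nondiabetic mice (0.024, median-ratio scaling). The cause was not tested.

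Large minus small subunit was -1.59, -1.49 and -1.07 with a pseudocount of 5 (nondiabetic marrow, diabetic marrow, nondiabetic wound). It was -1.59, -1.53, -0.99 and -0.71 with the highest locus, -1.47, -1.11, -0.97 and -0.51 with summed loci, and -0.88, -0.88, -0.80 and -0.69 with whole coding sequences (diabetic wound last). In nondiabetic wound it was -1.19 with a pseudocount of 0.1 and -1.07 with quantile scaling. Leaving out each library gave 7 to 9 higher and 32 to 38 lower for wound minus marrow in nondiabetic and 18 to 25 and 6 to 10 in diabetic mice. It gave 12 to 24 and 3 to 7 for diabetic wound, 4 to 5 and 26 to 33 for diabetic marrow, and 30 to 36 and 1 to 2 for the difference of effects; a group left with 1 library is assumed to vary like the others.

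The labels do not say that a pool number joins marrow and wound pools, and deviations of same-numbered pools correlated at -0.33 to 0.23. With pool number as a replicate block, higher and lower counts were 9 and 38, 24 and 9, 21 and 6, 4 and 35, and 36 and 2 in the order wound minus marrow nondiabetic, diabetic, diabetic wound, diabetic marrow, difference of effects. With the block set within genotype they were 9 and 37, 23 and 9, 12 and 4, 5 and 23, and 36 and 4. In that fit 12 results of named members lost their call. In diabetic wound they were the rises of Rpl22l1 (0.62, adjusted p = 0.0804), Rps25 (0.49, adjusted p = 0.0636), Rps18, Rpl22 and Rps27l and the falls of Rpl24 and Rps9. In diabetic marrow they were the falls of Rplp1 (-0.54), Rplp2 (-0.46) and Rps19 (-0.33) and the rise of Rpl22l1 (0.39). The difference of effects of Rplp1 (0.57) was the last. Without read depths, counting error could not be set against these differences.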
